A study of Mus musculus with 20 samples.

Results

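The HoxA cluster was described from the peaks called after chromatin immunoprecipitation and sequencing in mouse embryonic fibroblasts. The region was chromosome 6 at 52108500-52235000 of the mm9 build, a window of 126.5 kb set to hold the genes from Hoxa2 to Hoxa13. It was chosen by position, and 223 of the 4480164 peaks in the 10 lists overlapped it. C57BL/6 embryos of stage E13.5 were the source of the cells, which were grown to passage 4 in 10% serum. Cells marked SS, a genotype with no further description in the labels, were set beside wild-type cells (WT). The histone mark H3K27me3 was assayed in arrested SS, arrested WT, proliferating SS and proliferating WT cells. Ezh2 was assayed in serum-deprived SS and WT cells, and the retinoblastoma protein pRb, for which the labels list 5 antibodies, in arrested SS, arrested WT, proliferating SS and proliferating WT cells. The treatment label names 0.1% serum for 72 h on every sample, proliferating ones included, whereas the growth label names serum deprivation for Ezh2 and arrested H3K27me3 and confluence for arrested pRb. The labels do not say how many embryos or cultures stood behind a library. Each group had 1 library, so the differences below were not checked in replicates and carry no p-value.

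Hox genes encode homeodomain transcription factors that give cells their position along the body axis, and in a cluster they lie in the order in which they are used from head to tail. Polycomb repressive complex 2, whose catalytic subunit is Ezh2, places H3K27me3 on Hox clusters where the genes are silent, and the mark there forms broad domains and not narrow peaks. Fibroblasts keep a Hox expression pattern that reflects the place in the body they came from, so a cluster can be marked over part of its length. pRb binds E2F transcription factors and restrains entry into the cell cycle.

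All 10 members were found in the RefSeq gene table of GRCm38.p6, which was used for their order and not for positions, since the peaks are in mm9. In rising coordinates the order was Hoxa2, Hoxa3, Hoxa4, Hoxa5, Hoxa6, Hoxa7, Hoxa9, Hoxa10, Hoxa11 and Hoxa13. The low-coordinate end of the window is therefore the Hoxa2 side and the high-coordinate end the Hoxa13 side. Hoxa2 acts in hindbrain and neck patterning, Hoxa5 in lung and trunk, and Hoxa9 to Hoxa13 in the hind part of the trunk, the urogenital tract and the limb. Between the first and the last member the table held 10 other genes, of which 9 were long noncoding RNAs and 1 a microRNA, Mir196b, next to Hoxa9 and Hoxa10. Beside the cluster, on the Hoxa13 side, lay the noncoding Hottip and the homeobox gene Evx1. Which gene lies in which part of the mm9 window was not determined.

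Promoters of the members are shown because CG-rich sequence is a common landing place of Polycomb complexes. RefSeq promoters of GRCm38.p6, from 250 bases before to 50 after a gene's start, were given for 9 of the 10 members, 10 promoters in all, each on the minus strand. Hoxa4 had none in the table. The CG pair occurred 4 to 45 times in them with a median of 17.5, against a median of 7 over all 32851 promoters in the table. The 3 printed below are those of the first and the last member and the one with the fewest CG pairs, with CG in capitals. The Hoxa13 promoter held 45 CG pairs, and 1.93% of all promoters held that many or more. The Hoxa2 promoter held 9 and the Hoxa9 promoter 4. The E2F motifs TTTGGCGC and TTTCCCGC, searched on both strands, were in none of the 10 member promoters and in 0.514% and 1.07% of all promoters. The other motifs were also searched on both strands. The Hox-Pbx motif TGATTNAT was in the promoter of Hoxa2 alone, and in 3.22% of all promoters. The letters TATAAA were in 1 promoter of Hoxa10, and in 13.6% of all promoters. In Hoxa2 and in Hoxa10 the match lay on the strand opposite to the gene's own. These matches describe the letters of a 300-base window and not binding.
Hoxa2 promoter, minus strand: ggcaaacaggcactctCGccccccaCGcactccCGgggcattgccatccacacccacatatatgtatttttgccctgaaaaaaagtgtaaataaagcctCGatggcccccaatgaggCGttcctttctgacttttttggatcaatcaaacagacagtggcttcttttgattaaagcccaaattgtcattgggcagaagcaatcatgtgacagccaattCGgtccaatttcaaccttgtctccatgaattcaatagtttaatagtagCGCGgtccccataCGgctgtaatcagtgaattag
Hoxa9 promoter, minus strand: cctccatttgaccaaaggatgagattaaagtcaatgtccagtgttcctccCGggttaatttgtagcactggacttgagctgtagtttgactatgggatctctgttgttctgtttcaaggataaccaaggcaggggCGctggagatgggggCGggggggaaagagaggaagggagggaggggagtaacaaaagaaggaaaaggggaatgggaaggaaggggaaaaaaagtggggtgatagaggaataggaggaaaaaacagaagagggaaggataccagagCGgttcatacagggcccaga
Hoxa13 promoter, minus strand: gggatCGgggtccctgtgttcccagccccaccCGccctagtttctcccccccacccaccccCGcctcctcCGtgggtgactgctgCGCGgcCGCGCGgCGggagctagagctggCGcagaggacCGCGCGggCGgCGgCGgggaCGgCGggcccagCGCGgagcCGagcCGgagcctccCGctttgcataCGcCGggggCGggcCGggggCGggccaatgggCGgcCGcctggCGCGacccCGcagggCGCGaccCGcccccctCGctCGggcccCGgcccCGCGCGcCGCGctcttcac

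The microRNA of the cluster, miR-196b, belongs to a family known to target Hox transcripts. Its mature 5p strand from RefSeq, with the seed at bases 2 to 8 in capitals, is printed because the gene lies inside the cluster that the mark covered.
mmu-miR-196b-5p: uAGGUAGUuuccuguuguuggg

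In proliferating cells, H3K27me3 covered nearly the whole HoxA cluster in both genotypes, mostly with 1 long peak in each. Coverage is the percent of bases that lie in a called peak, and it is not the amount of the mark. It was 98.2% of the window in proliferating SS and 97.1% in proliferating WT cells. Of the 25 full steps of 5 kb, 23 were covered to 100% in SS and 23 in WT cells, where 2.87% and 2.42% of all other autosomal steps were. The SS peak ran from 52110166 to 52232917, a length of 122752 bp, and the WT peak from 52111187 to 52232767, a length of 121581 bp. By length they ranked 10 among 168793 peaks of the SS list and 7 among 143252 peaks of the WT list. The authors' fold enrichment of the peak was 7.18 in SS and 5.73 in WT cells, beside list medians of 2.62 and 2.59.

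The ends of the long peak nearly coincided between genotypes. On the Hoxa2 side the peak began 1.67 kb into the window in SS and 2.69 kb into it in WT cells, after a stretch with no peak in either list at 52108567-52110165. This was a break and not the end of the mark: the 5 kb step just outside the window was covered to 100% in SS and 88.6% in WT cells. On the Hoxa13 side both lists broke at nearly the same place, for 705 bp in SS and 979 bp in WT cells, with no peak in either at 52232918-52233622, and the mark then went on past the window. With peaks merged across breaks of up to 1 kb, the block that holds the cluster was 172.8 kb long in SS and 172.3 kb in WT cells. No base of the window was covered in WT and free in SS cells, and 1.08% was covered in SS cells alone. The difference lay mostly in the first step, covered to 68.0% in SS and 46.3% in WT cells, the 1 step of 25 that was higher in SS by at least 20 points (4% of steps, beside 5.68% of autosomal steps tested). No step was lower by that much, beside 1.61% of autosomal steps. A step at 100% in WT cells, as 23 of the 25 were, could not be higher in SS cells.

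**Figure D1:**
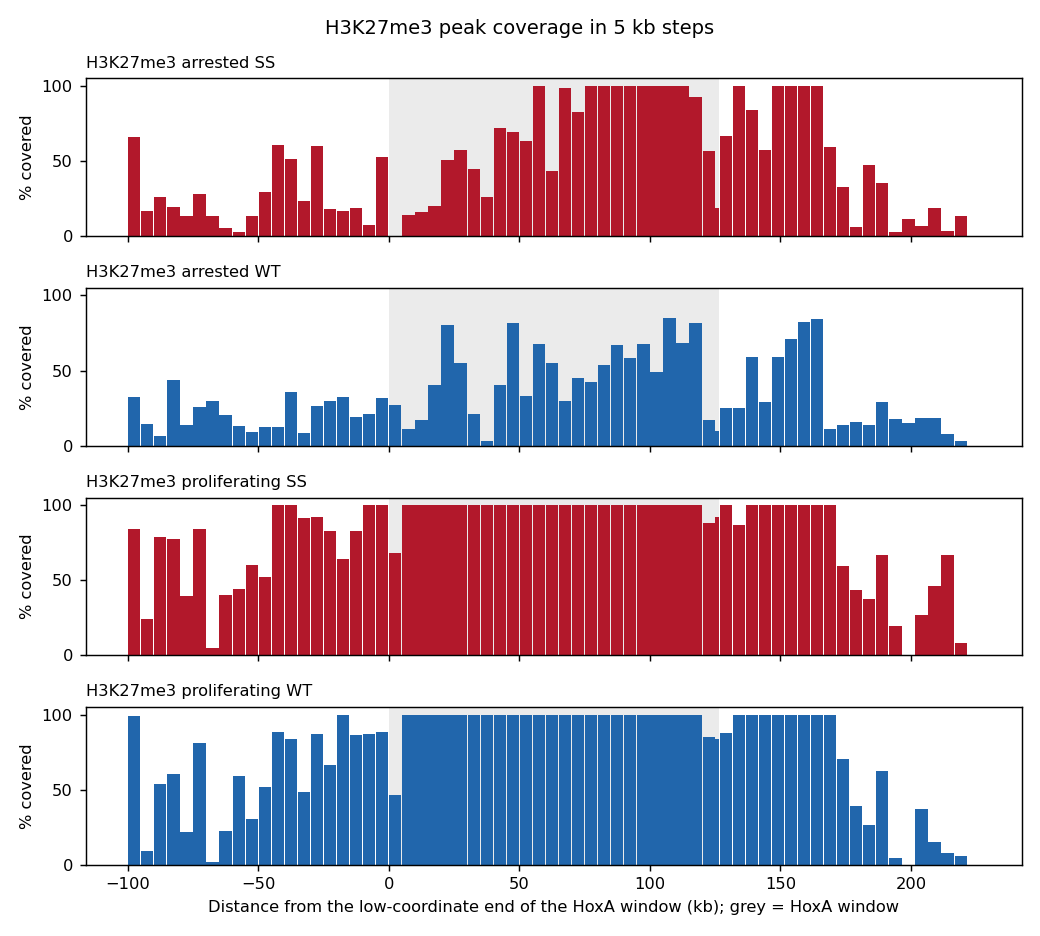
Percent of each 5 kb step covered by H3K27me3 peaks (vertical axis) along the HoxA window, in grey, and 100 kb on each side (horizontal axis, kb from the low-coordinate end, the Hoxa2 side), 1 library a panel. Both proliferating libraries are at 100% in 23 of 25 full steps, whereas the arrested SS library climbs from 0% in the first step to 100% in 9 steps and the arrested WT library stays at or below 84.8%.

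In arrested cells, H3K27me3 peaks covered more of the cluster in SS than in WT cells, and they did so towards the Hoxa13 side. The window was covered to 67.7% in arrested SS cells and 47.5% in arrested WT cells, a difference of 20.2 percentage points. Elsewhere on the autosomes the order was the other way round, with 6.69% covered in the arrested SS library and 7.75% in the arrested WT library. The window was thus covered 10.1 times as much as the other autosomal sequence in SS and 6.12 times as much in WT cells. Coverage was higher in SS in 19 of the 25 steps and lower in 6. It was higher by at least 20 points in 15 steps (60% of them, beside 5.78% of the 476508 autosomal steps with a peak in any list) and lower by at least 20 points in 3 steps (12%, beside 3.32%). Of the other autosomal steps 65.9% had no arrested SS H3K27me3 peak. Among 169 other long stretches with the mark, described below, 155 had a larger difference than HoxA. With the WT list shortened to the length of the SS list by score, the window was covered to 67.7% in SS and 23.3% in WT cells. With peaks merged across breaks of up to 1 kb the difference was 3.73 points. With only peaks scoring at least the median of the WT list, it turned to -39.6 points.

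The difference had a direction along the cluster. In the first 25 kb, on the Hoxa2 side, peaks covered 20.1% in arrested SS cells and 35.3% in arrested WT cells. In the next 50 kb the shares were 65.7% in SS and 43.1% in WT cells. In the 50 kb after that, towards Hoxa13, they were 94.9% in SS and 59.0% in WT cells. Both genotypes thus had more coverage on the Hoxa13 side, and the SS library was below WT only on the Hoxa2 side of these 3 parts. Beyond the window, the first 25 kb were covered to 81.6% in SS and 39.5% in WT cells.

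Single steps showed the same order. The largest gain was 65 to 70 kb from the Hoxa2 end, at 52173500-52178499, with 98.5% covered in arrested SS cells and 29.8% in arrested WT cells. The next were at 52183500-52188499, with 100% in SS and 42.4% in WT cells, and at 52208500-52213499, with 100% in SS and 48.9% in WT cells. The 3 largest losses were all within 25 kb of the Hoxa2 end. At 52128500-52133499 the shares were 50.5% in SS and 80.6% in WT cells, and in the first step they were 0% in SS and 27.0% in WT cells. The third loss, at 52123500-52128499, had 20.0% in SS and 40.7% in WT cells.

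**Figure D2:**
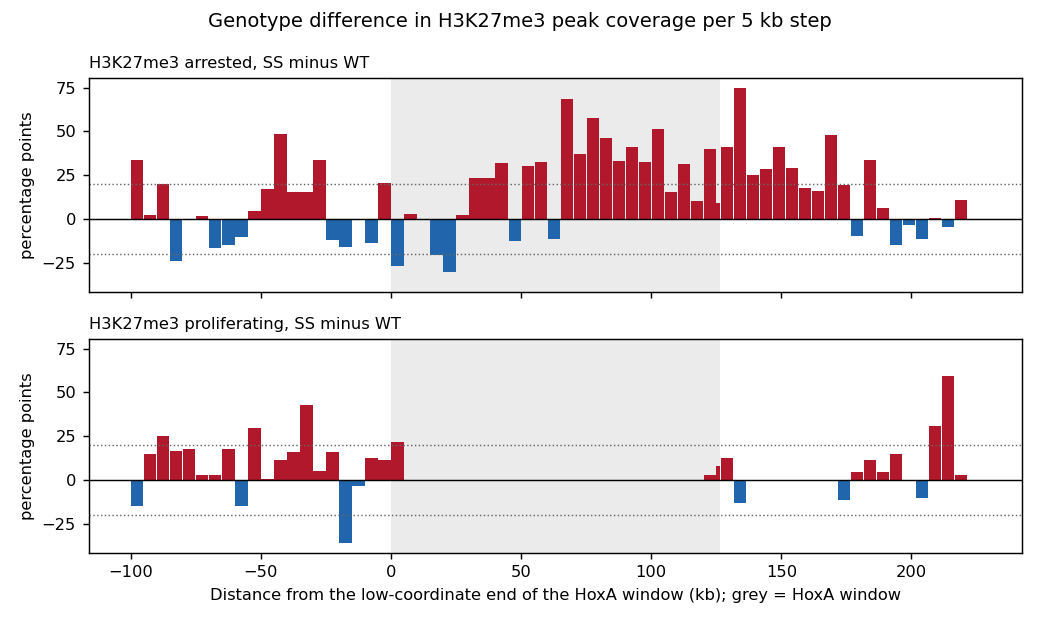
Difference in H3K27me3 coverage, SS minus WT, in percentage points per 5 kb step (vertical axis) along the HoxA window, in grey, and 100 kb on each side (horizontal axis, kb), in arrested cells above and proliferating cells below; dotted lines mark 20 points. In arrested cells the negative bars of at least 20 points within the window lie in the first 25 kb, and in proliferating cells 23 of the 25 full steps do not differ.

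The arrested lists also cut the cluster into pieces of unlike size. The arrested SS list had 26 peaks in the window with a median length of 788 bp, and the arrested WT list 59 peaks with a median of 621 bp. Among the arrested SS peaks, 1 at 52182040-52228116, 46077 bp long, held 36.4% of the window and ranked 5 by length in its list. The longest arrested WT peak, at 52214706-52219780, was 5075 bp long and held 4.01% of the window. The peak of highest authors' score was at 52130449-52131389 in SS, with a -log10 q-value of 6.54 and a fold enrichment of 5.20, and at 52181668-52181828 in WT cells, with 65.4 and 22.2. The next longest SS peaks, at 52162039-52170110 and 52173575-52181161, were 8072 and 7587 bp long. Of the bases in SS peaks 56.6% also lay in a WT peak, and of the bases in WT peaks 80.7% lay in an SS peak. The SS list had its longest stretch without a peak at the Hoxa2 end, 8153 bp at 52108500-52116652, of which WT peaks covered 20.2%. The WT list had its longest, 6692 bp, at 52140221-52146912, of which SS peaks covered 22.4%. Both stretches were covered to at least 67.0% in the proliferating libraries.

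Much of the arrested difference lay in short breaks between peaks. Of the 25 breaks between SS peaks 13 were at most 1 kb long, and of the 58 breaks between WT peaks 42 were. With peaks merged across such breaks, SS covered 76.1% and WT 72.4% of the window, and the difference fell to 3.73 points. The arrested WT list differed as a whole from the other H3K27me3 lists: its median peak length was 138 bp, against 439 bp in arrested SS, 702 bp in proliferating SS and 723 bp in proliferating WT cells. It held 6 peaks over 10 kb genome-wide, against 633 in arrested SS, 4000 in proliferating SS and 3420 in proliferating WT cells. The part of this in the HoxA difference was not tested. The authors' score, here the -log10 q-value of a peak, also ran on unlike scales, with list medians of 1.77 in arrested SS cells and 8.51 in arrested WT cells. No SS peak in the window reached the WT median, so at that cutoff the window was covered to 0% in SS and 39.6% in WT cells.

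**Figure D3:**
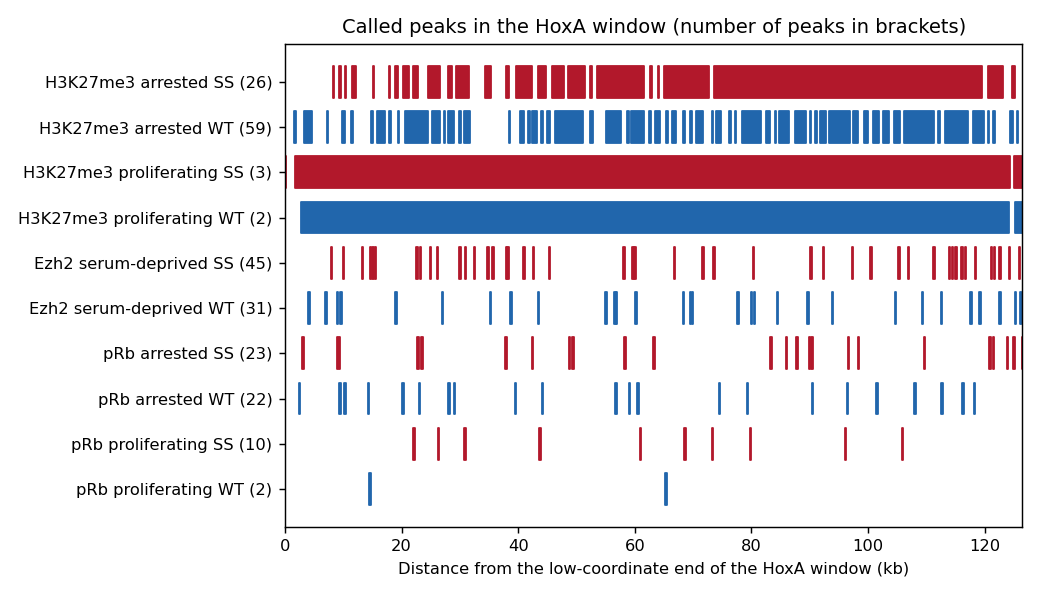
Every called peak in the HoxA window (horizontal axis, kb from the Hoxa2 side), 1 row per library, SS in red and WT in blue, with the number of peaks in brackets; peaks under 0.25 kb are drawn 0.25 kb wide. The proliferating H3K27me3 libraries show 3 peaks in SS and 2 in WT, of which 1 each spans nearly the whole window, the arrested libraries 26 and 59 pieces, and the Ezh2 and pRb libraries scattered short peaks.

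Arrested cells had less of the cluster covered than proliferating cells in both genotypes. In SS cells the window was covered to 67.7% when arrested and 98.2% when proliferating, a difference of -30.5 points. In WT cells it was covered to 47.5% when arrested and 97.1% when proliferating, a difference of -49.6 points. With the longer list shortened to equal length, the arrested window was covered to 65.6% in SS and 9.53% in WT cells. Coverage was lower in arrested than in proliferating cells by at least 20 points in 13 of the 25 steps in SS (52%, beside 12.6% of all autosomal steps tested) and in 20 of them in WT cells (80%, beside 11.5%). Of the other autosomal steps 68.4% in SS and 74.5% in WT cells had no proliferating peak and so could not be lower. The window's ratio of arrested to proliferating coverage was 0.689 in SS and 0.489 in WT cells. Over the other autosomal steps it was 0.562 in SS and 0.786 in WT cells. No step was higher by at least 20 points, where 0.841% of autosomal steps in SS and 2.76% in WT cells were. In both genotypes 23 of the 25 steps were at 100% when proliferating and could not rise. This count is therefore no result about the cluster. In SS cells the 3 steps of largest loss were neighbours on the Hoxa2 side, 5 to 20 kb into the window, with 13.9%, 16.2% and 20.0% covered when arrested and 100% when proliferating. In WT cells the largest loss was 35 to 40 kb into the window, with 2.86% covered when arrested and 100% when proliferating. Of the bases in arrested peaks, 99.6% in SS and 98.8% in WT cells were in a proliferating peak of the same genotype. Proliferating peaks covered 98.2% and 97.1% of the window, so shares close to these follow from that coverage alone. With peaks merged across breaks of up to 1 kb the differences were -22.6 points in SS and -25.5 points in WT cells. Fewer cells with the mark, less of the mark per cell, and unlike depth or peak calling cannot be told apart in such bulk samples.

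The cluster as a whole was covered more than the 100 kb on each side in all 4 H3K27me3 libraries. In arrested cells the gap was larger on the Hoxa2 side. The 100 kb on the Hoxa2 side were covered to 27.2% in arrested SS, 21.9% in arrested WT, 70.1% in proliferating SS and 61.4% in proliferating WT cells. The 100 kb on the Hoxa13 side were covered to 47.4%, 29.9%, 63.1% and 57.8% in the same libraries. Nearest the window, the first 25 kb of that side had 81.6%, 39.5%, 97.4% and 97.5% in the same order. In arrested SS this exceeded the 67.7% of the window, and in proliferating cells it was close to the window's 98.2% and 97.1%. In arrested SS the window's own first 25 kb, on the Hoxa2 side, had 20.1%, below the 27.2% of the 100 kb beside them. The window was covered 1.82 times as much as both sides together in arrested SS, 1.83 times in arrested WT, 1.47 times in proliferating SS and 1.63 times in proliferating WT cells. With only 50 kb on each side as surroundings, the window exceeded them by 10.7 points in arrested SS and 9.78 points in proliferating WT cells, instead of 30.4 and 37.5 points with 100 kb on each side. Among 19203 other autosomal tiles of 125 kb, the median coverage was 2.61% in arrested SS, 6.22% in arrested WT, 4.08% in proliferating SS and 2.40% in proliferating WT cells. The number of these tiles covered at least as much as the HoxA tile was 32, 5, 5 and 6 in the same 4 libraries.

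**Figure D4:**
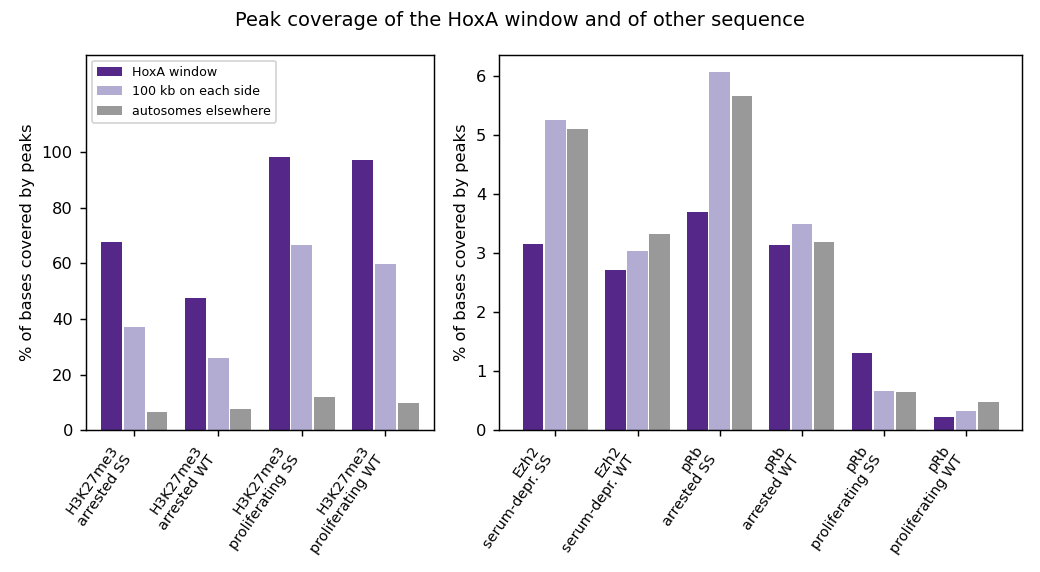
Percent of bases covered by called peaks (vertical axes, which differ between panels) in the HoxA window, in the 100 kb on each side and in the other autosomal steps, for the 4 H3K27me3 libraries on the left and the 6 Ezh2 and pRb libraries on the right. For H3K27me3 the window is the tallest bar in every library, whereas for Ezh2 and arrested pRb it is below both other bars in every library.

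Ezh2, the enzyme that writes the mark, showed no domain over the cluster, and neither of its lists held a peak over 10 kb anywhere. Its peaks covered 3.16% of the window in serum-deprived SS and 2.71% in serum-deprived WT cells. The other autosomal steps were covered to 5.10% in SS and 3.32% in WT cells, so the window lay at 0.620 times that level in SS and 0.816 times in WT cells. The 169 other long stretches with H3K27me3, described below, had median Ezh2 coverage of 5.13% in SS and 3.23% in WT cells, close to that level too. With the SS list shortened to the length of the WT list, the window was covered to 2.43% in SS and 2.71% in WT cells, and the sign turned. Of the 19203 other tiles, 95.3% in SS and 82.0% in WT cells were covered at least as much. The SS list had 45 peaks there and the WT list 31. Of the SS peaks 30 were 51 bp long, the minimum of that list, and of the WT peaks 18 were 50 bp long, likewise the minimum. The longest were 306 bp in SS, at 52131044-52131349, and 345 bp in WT cells, at 52112529-52112873. The highest authors' score was 5.24 in SS, at 52230089-52230139, and 3.86 in WT cells, at 52188362-52188412. The largest gain of a step was at 52128500-52133499, with 8.16% covered in SS and 0% in WT cells, and the largest loss at 52163500-52168499, with 3.06% in SS and 10.2% in WT cells. Only 1 peak of each list overlapped the other genotype, at 52168449-52168561 in SS and 52168559-52168608 in WT cells, by 3 bp. That is 2.22% of the SS and 3.23% of the WT peaks in the window, beside 8.02% and 11.3% over the whole lists. Ezh2 peaks fell in arrested H3K27me3 peaks about as often as the coverage of the window: 31 of 45 in SS (68.9%), where 67.7% was covered, and 13 of 31 in WT cells (41.9%), where 47.5% was covered. Over the whole Ezh2 lists these shares were 8.42% in SS and 11.0% in WT cells.

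pRb peaks over the cluster were short in both genotypes, and coverage was below the level elsewhere in arrested SS and close to it in arrested WT cells. In arrested cells pRb peaks covered 3.69% of the window in SS and 3.14% in WT cells, with 23 and 22 peaks. The other autosomal steps were covered to 5.66% in SS and 3.18% in WT cells. The SS library thus had 0.653 times and the WT library 0.985 times the level of other autosomal sequence over the cluster, while genome-wide SS coverage was 1.78 times that of WT. With the SS list shortened to the length of the WT list, the window was covered to 1.88% in SS and 3.14% in WT cells, so here too the sign turned. Of the SS peaks 4 overlapped a WT peak (17.4%, beside 7.21% over the whole list), by 72, 9, 97 and 1 bp, and of the WT peaks 4 overlapped an SS peak (18.2%, beside 11.0%). The peak of highest authors' score was at 52150840-52151012 in SS, with a score of 454, and at 52204908-52205044 in WT cells, with a score of 257. The longest peaks were 447 bp in SS, at 52117408-52117854, and 366 bp in WT cells, at 52128558-52128923, so neither list held a broad pRb region.

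In arrested SS cells, pRb peaks covered less of the middle of the cluster than of either end, but few peaks lay behind this. In arrested WT cells the middle was below the Hoxa2 side and close to the Hoxa13 side. Coverage of the first 25 kb was 5.25% in arrested SS (4 peaks) and 4.69% in arrested WT (6 peaks). The next 50 kb had 2.03% in SS (6 peaks) and 2.68% in WT (8 peaks). The 50 kb after that had 4.36% in SS (12 peaks) and 2.91% in WT (8 peaks). Each of these SS shares was below the 5.66% of the other autosomal steps. Single steps weighed on the SS ends: those at 52123500-52128499 and 52223500-52228499, beside the densest steps, were at 0%. The largest gain of a step was at 52228500-52233499, where the proliferating H3K27me3 peak ended, with 17.7% covered in arrested SS cells and 0% in arrested WT cells. Near the other end, at 52128500-52133499, the shares were 14.4% in SS and 10.0% in WT cells. The step at 52193500-52198499 was covered to 9.02% in SS and 0% in WT cells, and the largest loss, at 52118500-52123499, had 0% in SS and 7.48% in WT cells. At the Hoxa13 end, a pRb peak at 52229865-52230167 overlapped the Ezh2 peak of highest score in the SS window. In all, 5 of 23 arrested pRb peaks overlapped an Ezh2 peak in SS cells (21.7%, beside 16.4% over the whole list) and 2 of 22 in WT cells (9.09%, beside 10.3%). An arrested H3K27me3 peak of the same genotype was overlapped by 17 of 23 arrested pRb peaks in SS (73.9%, where 67.7% of the window was covered) and by 14 of 22 in WT cells (63.6%, where 47.5% was covered). Over the whole lists these shares were 9.36% in SS and 13.3% in WT cells. Overlap needs only 1 bp, so a share of pRb or Ezh2 peaks can exceed the share of bases through peak length alone. By the growth label the pRb cells were arrested by confluence and the H3K27me3 cells by serum deprivation.

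In proliferating cells pRb covered 1.30% of the window in SS and 0.222% in WT cells, with 10 and 2 peaks, and the other autosomal steps were covered to 0.642% in SS and 0.474% in WT cells. The SS window thus lay at 2.03 times and the WT window at 0.469 times the level elsewhere. None of the 10 SS peaks overlapped a proliferating WT peak, beside 1.27% over the whole SS list, and none overlapped an arrested SS peak, beside 10.2%. The leading SS peak, at 52134688-52134954, had a score of 47.9 and ranked 2692 in its list, and the leading WT peak, at 52122949-52123088, ranked 41289. Between growth conditions, pRb covered 3.69% in arrested and 1.30% in proliferating SS cells, and 3.14% in arrested and 0.222% in proliferating WT cells. These ratios of 2.84 in SS and 14.1 in WT stood beside genome-wide ratios of 8.81 and 6.72. With the longer list shortened to the length of the other by score, the arrested window was covered to 0.554% in SS and 0.108% in WT cells, so that the sign turned in both genotypes.

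Among other long H3K27me3 domains, the HoxA domain had a small genotype difference in arrested cells. Domains were the merged proliferating H3K27me3 peaks over 50 kb on the autosomes, 170 in all, a comparison added after the data were seen. The HoxA domain was the thirteenth longest. It was covered to 69.3% in arrested SS cells and 48.4% in arrested WT cells, and the other 169 domains had medians of 75.9% in SS and 39.7% in WT cells. The difference, SS minus WT, was 21.0 points for HoxA and had a median of 35.4 points over the others, of which 155 had a larger one. Of the other domains 123 had more coverage than HoxA in the arrested SS library and 30 in the arrested WT library. The longest domains of all, singled out after their values were seen, on chromosome 11 at 96005560-96248997 and on chromosome 15 at 102691982-102909341, had differences of 17.3 and 16.4 points. With 1 library per group this place in the ranking has no replicate check.

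**Figure D5:**
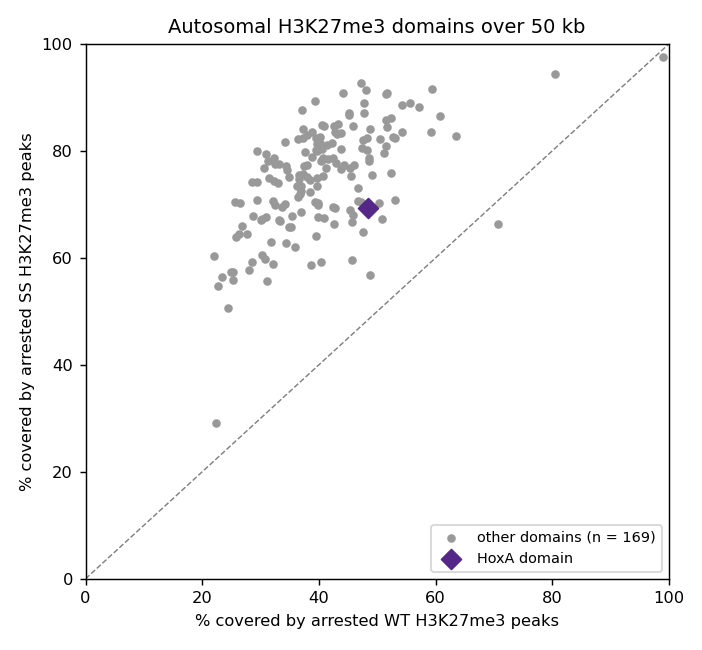
Percent of each autosomal H3K27me3 domain over 50 kb covered by arrested SS peaks (vertical axis) and by arrested WT peaks (horizontal axis), with the HoxA domain as a diamond and the line of equal coverage dashed. Of the 169 other domains 167 lie above the line, and the HoxA domain, at 69.3% and 48.4%, lies nearer to it than 155 of them.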

How the data were processed

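Per the labels' protocols, chromatin was fixed with an ethylene glycol-based cross-linker and formaldehyde and sheared. Bowtie2, MACS2, HOMER and bedtools are named, per the submitters' processing notes, as is mm9; their versions, roles and settings are not. Peaks stand in 1 deposited list per library, and the control used is not given in the sources used here. The 4 deposited pRb lists give a score per peak, lowest 20, of unstated unit. The other 6 deposited lists hold the authors' score, a fold enrichment (a ratio) and 2 columns on the -log10 scale, for p and for q. Scores equalled 10 times the q column, cut to whole numbers, except in 79 of 3220912 rows. Lists were cut into 5 kb steps from the window's start, and the 476508 autosomal steps with a peak in any list served as background. The last 1501 bp of the window form no full step. Overlap means at least 1 bp. No read counts were used, so depth is unknown and no interval is given; a deeper library can yield more and weaker peaks. Coverage and overlap code was tested on simulated lists. The named genes are the members and their neighbours, of which those on the Hoxa2 side are not reported here. The named peaks are the longest and the highest-scoring of each library in the window, and the named steps the 3 largest gains and losses per comparison. The region and these rules were chosen with earlier results of these data known. The 10 input libraries were not used here. Software: matplotlib 3.10.9, scipy 1.17.1, pandas 2.3.3 and numpy 2.4.6 under Python 3.11.15.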

Additional observations from a re-analysis of the deposited data

Results flagged for a closer look

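The number of H3K27me3 peaks in the HoxA window moved in opposite directions with genotype in the 2 growth conditions: SS minus WT was -33 peaks in arrested cells (26 in SS, 59 in WT) and 1 peak in proliferating cells (3 in SS, 2 in WT). The whole lists had the same directions, with 227847 peaks in arrested SS, 656342 in arrested WT, 168793 in proliferating SS and 143252 in proliferating WT cells. The proliferating SS count includes a peak at 52096249-52108566 that reached only 0.067 kb into the window. The difference of 1 peak thus depends on where the window was cut. Neither difference was tested, and each number comes from 1 library.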

How the results depend on the processing

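Of 90 recomputed values 5 changed sign; with 1 library per group, none can be set against a replicate spread. All coverage values below are differences in percentage points, and the cause of each change was not tested except where stated. Equal list lengths turned the sign of the SS minus WT difference for Ezh2 (-0.274) and arrested pRb (-1.26) and of the arrested minus proliferating difference for pRb in SS (-0.749) and WT (-0.114); it shortens the longer list by construction. It moved arrested H3K27me3, SS minus WT, to 44.4 and H3K27me3 in WT, arrested minus proliferating, to -87.6. A common cutoff at the higher list median, added after the data were seen, turned arrested H3K27me3 to -39.6 and moved arrested minus proliferating to -42.7 in SS and -56.5 in WT for H3K27me3 and to 1.13 in SS and 0.784 in WT for pRb. Merging within 1 kb gave 3.73 for arrested H3K27me3, 3.84 for Ezh2, and -22.6 in SS and -25.5 in WT for arrested minus proliferating H3K27me3. The higher-scoring part of each list gave -41.1 in SS and -57.5 in WT for arrested minus proliferating H3K27me3, and 0.186 in SS and 0.784 in WT for pRb. Peaks of at least 500 bp left no pRb or Ezh2 peak in the window, so every pRb and Ezh2 difference became 0. With 50 kb surroundings the excess of the window was 10.7 in arrested SS, 13.0 in arrested WT, 7.60 in proliferating SS and 9.78 in proliferating WT H3K27me3. At 30 points, 1 step instead of 3 was lower in arrested SS H3K27me3, and 0 instead of 1 higher in proliferating SS; shifted steps also gave 0 there. A common lowest score left the 9 coverage differences as they were. No paired analysis was possible because each group has 1 library and the labels carry no replicate numbers.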

Other observations

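The HoxA window held a stretch on the Hoxa2 side, at 52108567-52110096, where none of the 4 H3K27me3 lists had a peak. Across the 25 full steps, which share libraries and neighbouring sequence and are not replicates, Spearman's rho between SS and WT coverage was 0.607 for arrested H3K27me3, -0.134 for Ezh2 and -0.0792 for arrested pRb. The same measure between arrested pRb and arrested H3K27me3 was -0.0263 in SS and 0.215 in WT cells.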
